A study of Drosophila melanogaster with 2 samples.

Results

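The genes described here encode proteins of oxidative phosphorylation in Drosophila melanogaster, and the question was whether the transcription factor subunit Nf-YA lay at their start sites. Members were all protein-coding genes whose symbol starts with ND-, UQCR-, COX, ATPsyn or Sdh, which gave 88 of the 13945 protein-coding genes on the 6 chromosome arms analysed. By the complex their proteins belong to, 40 are complex I genes, 7 complex II, 9 complex III, 16 complex IV and 15 complex V. The remaining member, Sdhaf3, is an assembly factor of complex II and not a subunit. Symbols of 24 members carry an L suffix, alone or with a number after it, which marks a paralog of a subunit gene that need not be a member itself, and 64 members have no such suffix. The study was chromatin immunoprecipitation with sequencing on whole embryos of the strain Nf-YA-GFP, collected at 0 to 24 h. The flies carry a transgene for Nf-YA fused to eGFP, a green fluorescent protein, and the labels describe precipitation through that tag with an anti-GFP antibody, although their antibody field names Nf-YA. The series has 1 group of 2 biological replicates that share strain, age and antibody. A control library named in the records was not analysed here. Embryos of all stages and tissues were pooled and their sex was not collected, so binding in few cells and weak binding in many cells cannot be told apart.

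Oxidative phosphorylation passes electrons from NADH and succinate along the inner mitochondrial membrane to oxygen and uses the proton gradient so formed to make ATP. Complex I takes electrons from NADH, complex II from succinate, complex III hands them to cytochrome c, complex IV reduces oxygen, and complex V is the ATP synthase. Most subunits are encoded in the nucleus, so many scattered genes supply parts of a few assemblies, and in flies several of the duplicated copies are known for expression in the testis. Nf-YA is the subunit of the trimeric factor NF-Y that recognises the CCAAT box.

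Sequences at 5 of the 7 bound summits, those of ND-ASHI, ND-24, ND-51, ND-42 and COX6B, are shown so that the letters at the summits can be read beside the motif counts given further on for all 7. A summit is the position of highest signal within a peak. Motifs were sought on both strands, and capitals mark them: CCAAT, which reads ATTGG on the other strand, TATAAA, which reads TTTATA, and the palindromic octamers TTACGTAA and TTATATAA together with TTACATAA and TTATGTAA, a group called the NRG element in fly mitochondrial genes. TTATATAA overlaps TATAAA where a further A follows. Also sought were TATCGATA, the core of the site of the replication-related factor Dref, CACGTG, an E-box, and TGCGCATG, a form of the site of Ewg. The stretches of COX6B, ND-42 and ND-51 run between the start sites of the gene and of its neighbour on the opposite strand, that of ND-24 is its intron, and that of ND-ASHI is the peak. All are given 5′ to 3′ on the strand of the named gene, in dm6 coordinates, from the RefSeq reference sequence.
ND-ASHI, chrX:6679321-6679471, minus strand: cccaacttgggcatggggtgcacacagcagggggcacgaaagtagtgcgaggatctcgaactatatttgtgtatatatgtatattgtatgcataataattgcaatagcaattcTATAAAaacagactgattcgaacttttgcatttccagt
ND-24, chrX:17632180-17632253, plus strand: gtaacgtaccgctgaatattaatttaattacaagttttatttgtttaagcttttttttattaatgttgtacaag
ND-51, chr2L:6062758-6062988, minus strand: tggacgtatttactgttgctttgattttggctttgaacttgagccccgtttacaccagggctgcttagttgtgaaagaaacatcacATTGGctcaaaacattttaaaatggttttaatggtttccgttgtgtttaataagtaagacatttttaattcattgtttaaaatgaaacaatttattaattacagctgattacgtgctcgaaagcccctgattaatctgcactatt
ND-42, chr3R:22027481-22027708, plus strand: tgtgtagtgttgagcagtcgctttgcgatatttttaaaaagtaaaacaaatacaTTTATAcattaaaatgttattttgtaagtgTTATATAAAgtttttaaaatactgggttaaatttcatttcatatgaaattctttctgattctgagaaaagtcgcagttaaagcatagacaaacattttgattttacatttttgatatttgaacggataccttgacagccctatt
COX6B, chrX:19744336-19744430, minus strand: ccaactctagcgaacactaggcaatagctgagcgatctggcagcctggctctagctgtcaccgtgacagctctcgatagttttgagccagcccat
The only CCAAT in these 5 stretches was in ND-51, where it was 12 bases from the summit at position 103. ND-42 held TTATATAA at 3 bases from the summit at position 95, joined with TATAAA. ND-ASHI held a TATAAA at 42 bases from its summit, and COX6B and ND-24 held no motif of the 7 kinds.

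A second set shows the longer NF-Y forms, CCAAT followed by CA, CG, GA or GG, which all contain the CCAAT box, before the start sites of members that had no summit in the pooled thresholded list. Capitals mark the form on either strand, in 47-base stretches from the same reference sequence and on the strand of the gene.
ND-B14.5A, chrX:2172293-2172339, plus strand: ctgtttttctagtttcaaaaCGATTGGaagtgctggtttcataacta
ND-20L, chr3R:29515619-29515665, plus strand: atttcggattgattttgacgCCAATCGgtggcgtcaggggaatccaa
SdhCL, chr3R:11115905-11115951, minus strand: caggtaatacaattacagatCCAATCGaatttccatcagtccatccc
SdhCL, chr3R:11115746-11115792, minus strand: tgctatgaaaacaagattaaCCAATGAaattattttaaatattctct
COX6AL2, chr3L:18914170-18914216, minus strand: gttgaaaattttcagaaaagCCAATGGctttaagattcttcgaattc
SdhCL, a paralog of a membrane anchor subunit of complex II, carried 2 such forms at -225 and -66 from its start site, where minus signs mark positions upstream. It had no entry in the ranked list of replicate 1 and an entry of signal 21.7 at -305 bp in that of replicate 2. The form at -46 before COX6AL2 was not near an entry, since the gene's best entry in replicate 1, of 7.73, was at 401 bp inside the gene and replicate 2 had none within 500 bp. The stretches come from only part of the 9 members with such a form, and signals differed among these members. ND-B8, not shown, had a form at -155. Its entries were 27.7 at 277 bp in replicate 1 and 9.85 at 153 bp in replicate 2.

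A smaller share of members than of all genes had a summit at a start site. In the pooled thresholded list of 3354 peaks, 7 of 88 members (7.95%, exact 95% interval 3.26 to 15.7) had a summit within 500 bp of a start site and are called bound, against 12.5% of all protein-coding genes (1737 of 13945). The interval covers counting error only and contains the background, so the members' share was not separable from that of genes at large. In the conservative thresholded list 5 members (5.68%) were bound, against 11.6% of all genes. The own thresholded list of replicate 1 held 3 members (3.41%, interval 0.709 to 9.64), against 7.54% of all genes, and that of replicate 2 held 4 (4.55%, 1.25 to 11.2), against 9.14%. The members' share was below that of all genes in each of the 4 lists, and each of these lists shares peaks with the others. The thresholded lists keep peaks with an irreproducible discovery rate of at most 0.01, which the deposited score encodes.

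Low entries near start sites were about as frequent at members as elsewhere. In the ranked lists, which keep entries far below the threshold, 66 members (75.0%) had an entry within 500 bp in replicate 1, against 73.4% of all genes, and 73 members (83.0%) in replicate 2, against 76.9%. Entries in both replicates were found at 58 of 88 members, against 8825 of all 13945 genes. The best entries of members had a median signal of 17.9 in replicate 1 and 19.9 in replicate 2, against 17.0 and 19.3 for all genes with an entry, on a scale of the authors that the files do not state. Ranked among all protein-coding genes, with genes lacking an entry placed lowest, members had a median percentile of 57.8 in replicate 1 and 54.3 in replicate 2. In the top 10% of genes stood 4 members (4.55%) in each replicate, and ND-ASHI, ND-MWFE and ND-24 did so in both. The members therefore sat near the middle of the genes and had few at the top.

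Complex I, which oxidises NADH, held 5 of the 7 bound members and 40 of the 88 members. Its share of 5 in 40 (12.5%, interval 4.19 to 26.8) was that of all genes, also 12.5%. ND-ASHI, an accessory subunit of its membrane arm, had the highest pooled signal among the members at 230, which ranked 299 of 3354 peaks. Its signal was 113 in replicate 1 and 124 in replicate 2, and both values exceeded those of every other member. The summit at chrX:6679400 lay at -282 bp from the start of ND-ASHI and in an intron of Fum1, which encodes fumarase of the tricarboxylic acid cycle. The Fum1 start at chrX:6679640 points away from ND-ASHI and was nearer, with the summit at -240 bp. A second Fum1 start lay inside ND-ASHI on the opposite strand, with the summit 976 bp downstream of it.

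ND-MWFE, a small accessory subunit of complex I, had a pooled signal of 153, with 59.1 in replicate 1 and 94.9 in replicate 2. Its summit at chr2R:13158473 was at -193 bp from ND-MWFE and at -28 bp from the divergent TppII, which encodes the peptidase tripeptidyl-peptidase II. ND-24, a core subunit of the NADH dehydrogenase module that carries an iron-sulfur cluster, had a pooled signal of 129, with 36.1 in replicate 1 and 88.0 in replicate 2. The summit at chrX:17632228 lay in the intron of ND-24, 139 bp inside its first start and at -93 bp from its second. The replicate entries had summits 80 bp inside the first start in replicate 1, outside the intron, and 95 bp inside it in replicate 2. The divergent neighbour corolla, which encodes a protein of the meiotic synaptonemal complex, had the summit at -181 bp. ND-ASHI, ND-MWFE and ND-24 were the members present in all 4 thresholded lists.

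ND-51, the core subunit that binds NADH, had a pooled signal of 83.3 and was the bound member that was higher in replicate 1, with 48.0 there and 29.3 in replicate 2. Its summit at chr2L:6062886 was at -129 bp from ND-51 and at -103 bp from the divergent CG13994, and it stood in the pooled and conservative lists. ND-42, an accessory subunit of complex I, had a pooled signal of 66.1, with 24.3 in replicate 1 and 34.8 in replicate 2. Its summit at chr3R:22027575 was at -134 bp from ND-42 and at -95 bp from Cchl, which encodes the enzyme that attaches heme to cytochromes c. The score of that peak was 870, a rate of 0.00803, and it stood in the pooled list alone.

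Of the 7 core subunit genes of complex I, ND-51 and ND-24 were bound (28.6%, interval 3.67 to 71.0), against 12.5% of all genes. ND-49 had no entry in either replicate. The 4 others, ND-75, ND-30, ND-23 and ND-20, had signals between 17.9 and 22.7 in replicate 1 and between 12.3 and 22.4 in replicate 2. The other complex I genes without an L suffix had 3 bound of 27 (11.1%, interval 2.35 to 29.2), against 12.5% of all genes.

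No complex II gene was bound (0 of 7, interval up to 41.0%, against 12.5% of all genes). SdhA and SdhB, which encode the catalytic flavoprotein and the iron-sulfur subunit, had no entry in either replicate, and the nearest pooled summits lay 22485 bp and 2225 bp away. These 2 genes were chosen after their values were seen, from the 7 members without any entry, which also include COX4L, COX6CL, ND-49, ND-51L2 and ND-MLRQ. The share of all genes without an entry in either replicate was not counted. In replicates 1 and 2, 75.0% and 83.0% of members had an entry, against 73.4% and 76.9% of all genes. SdhBL, the paralog of SdhB, had entries of 25.5 in replicate 1 and 23.5 in replicate 2.

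Complex III, which passes electrons to cytochrome c, had 1 bound gene of 9 (interval 0.281 to 48.2%), against 12.5% of all genes. UQCR-11L, the paralog of a small subunit near the cytochrome c docking site, had the lowest pooled signal of the bound members at 58.5, with 18.0 in replicate 1 and 38.1 in replicate 2. Its summit at chr2R:8677346 lay 127 bp inside the gene, in its own coding sequence, and it was the only bound member with no divergent neighbour. Its score of 900 corresponds to a rate of 0.0068, and its entry ranked 16344 in replicate 1. UQCR-C2, a core protein of the matrix side of complex III, was not bound and had entries of 24.0 in replicate 1 and 31.0 in replicate 2.

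Complex IV, cytochrome c oxidase, also had 1 bound gene of 16 (6.25%, interval 0.158 to 30.2), against 12.5% of all genes. COX6B, a subunit facing the intermembrane space, had a pooled signal of 62.0, with 21.9 in replicate 1 and 40.8 in replicate 2. Its summit at chrX:19744378 was at -43 bp from a start that the annotation also gives to CG18809. The same summit was at -53 bp from the divergent CG33932 and Rpp20, the second of which encodes a subunit of ribonuclease P. COX4, a large nuclear-encoded subunit of complex IV, was not bound and had entries of 23.3 and 23.6 in replicates 1 and 2, at 9 and 47 bp.

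Complex V, the ATP synthase, had 0 of 15 bound in the pooled list (interval up to 21.8%, against 12.5% of all genes), and 2 of its genes were in other lists. ATPsyngamma, which encodes the central stalk, was in the conservative list with a signal of 68.9 at -48 bp, and its entries were 32.1 in replicate 1 and 36.8 in replicate 2. ATPsynE, which encodes a membrane-sector subunit, was in the own list of replicate 2 with a signal of 45.1 at -48 bp, and its entry in replicate 1 was 19.3. Both summits lay in the 5′ untranslated region of the gene. ATPsynC, the gene of the rotor ring, had entries of 27.0 in replicate 1 and 23.7 in replicate 2. ATPsynCF6, the gene of a coupling factor of the stator, had 27.6 and 19.8, with summits 345 bp apart.

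The other unbound members among the 10 with the highest mean log2 signal were complex I genes. ND-MNLL, an accessory subunit, had entries of 20.8 in replicate 1 and 32.1 in replicate 2, at -40 and -53 bp. ND-13A, an accessory subunit, had 32.1 and 26.0 at -499 and -443 bp, and ND-15, also accessory, had 25.05 and 21.6 at 277 and 322 bp. The 10 genes reached at most 32.1 in replicate 1 and, ATPsynE aside, at most 36.8 in replicate 2. The unbound members overlapped the bound ones: ATPsyngamma exceeded ND-42, COX6B and UQCR-11L in replicate 1, and ATPsynE exceeded ND-51, ND-42, COX6B and UQCR-11L in replicate 2.

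**Figure D1:**
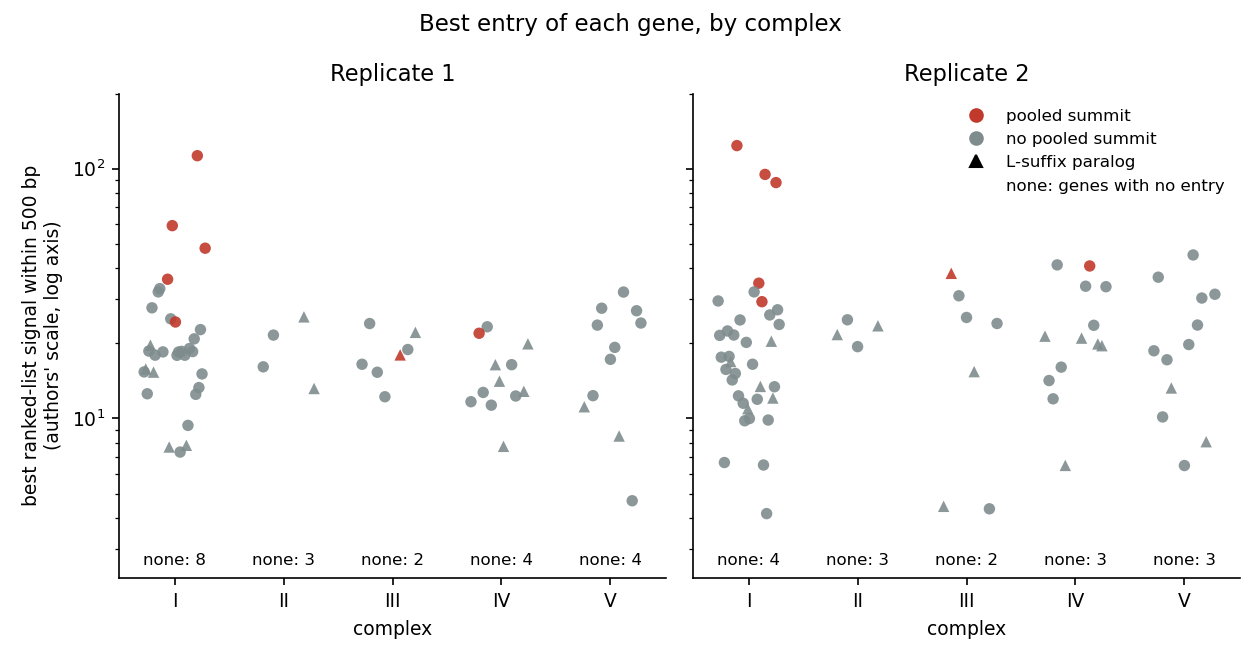
Best signal within 500 bp of a start site in the ranked lists of replicate 1 and replicate 2, on a log axis, by complex; points are members, triangles their L-suffix paralogs, red points bound members, and the number without an entry stands at the foot. Sdhaf3 is not drawn. Bound members of complex I reach 124, and complexes II and V hold no bound member.

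Replicate 2 gave the higher signal at 6 of the 7 bound members, with ratios of replicate 2 to replicate 1 between 0.611 at ND-51 and 2.44 at ND-24. Signals of different lists are on scales whose match is not stated, so these ratios describe the lists. Across the 58 members with an entry in both replicates, the entries lay within 100 bp of each other at 31 (53.4%), against 49.4% of all genes with entries in both. Across these 58 genes, Spearman's rho of the signals was 0.232, against 0.596 across all 8825 such genes, and Pearson's r of the log2 signals was 0.452, against 0.711. Genes are not independent replicates, each gene's values come from the same pair of libraries, and no test was made. With entries within 100 bp, rho was 0.393 for the 31 members and 0.750 for 4361 genes. Without the bound members, which include the highest signals, rho was 0.137 (n = 24). No such value was computed for all genes without their bound genes, so 0.137 cannot be set against 0.750.

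**Figure D2:**
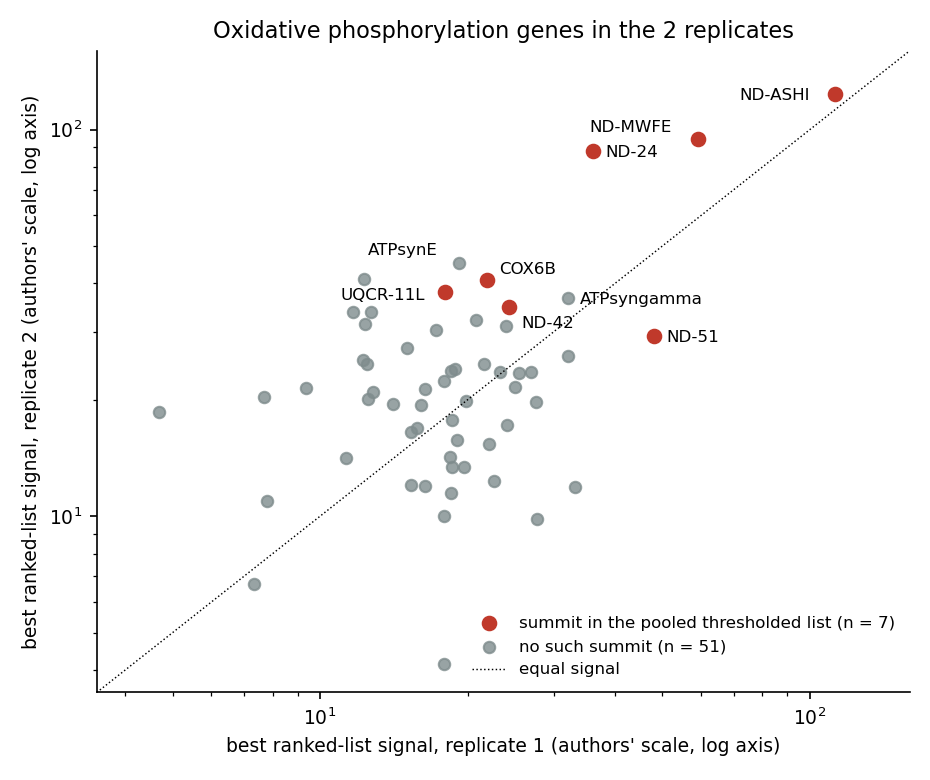
Best signal within 500 bp of a start site in replicate 2 against replicate 1, both on log axes, for the 58 members with an entry in both ranked lists; the dotted line marks equal values. ND-ASHI, ND-MWFE and ND-24 stand apart at the upper right, and COX6B, ND-42 and UQCR-11L lie among unbound members.

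Of the 7 bound members, 6 (85.7%) had a divergent neighbour, against 57.2% of all bound genes. Such a neighbour is a start on the opposite strand pointing away within 1000 bp. Summits were upstream of the nearest own start at 6 of 7 bound members (85.7%), close to the 82.2% of all bound genes, and UQCR-11L was the exception. ND-24 counts as upstream by its pooled summit and second start, while its replicate summits lay downstream of the nearer first start. Their median distance was 129 bp, against 147 bp for all bound genes. A divergent neighbour was found at 44 of 88 members (50%), against 36.2% of all genes. Among divergent members 6 of 44 (13.6%) were bound, against 19.7% of all divergent genes, and among the others 1 of 44 (2.27%), against 8.35%. The members' share was lower in each class, but it rests on 6 and 1 bound members, and no interval was computed for either. Another gene's start was nearer to the summit at 4 of 7 bound members (57.1%), against 22.9% of all bound genes (398 of 1737). Counting a summit only for the gene with the nearest start left COX6B, ND-24 and UQCR-11L, 3 of 88 (3.41%), against 9.76% of all genes. This count was added after the values had been seen.

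**Figure D3:**
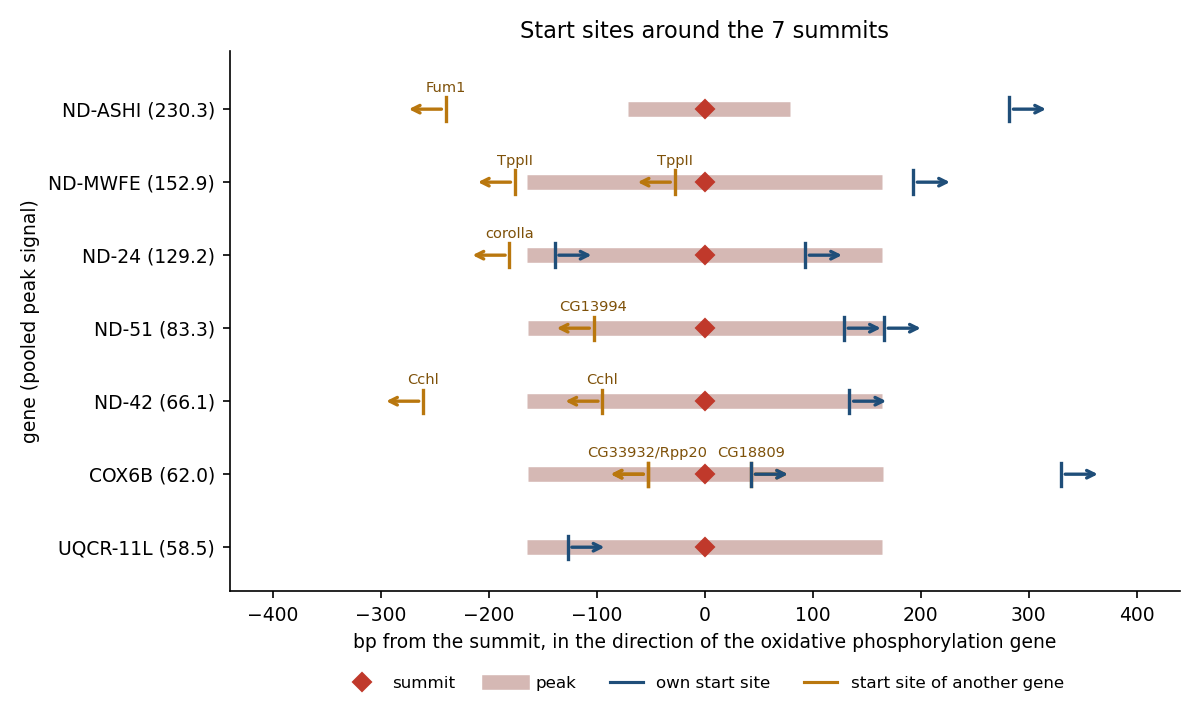
Start sites around the summit of each bound member, in bp from the summit and in the direction of the member; diamonds mark summits, shaded bars peaks, arrows start sites of the member or of another gene, and the pooled signal stands beside each name. Another gene's start is nearer than the member's at ND-ASHI, ND-MWFE, ND-51 and ND-42, and UQCR-11L has its summit inside the gene with no other start drawn.

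The paralogs with the L suffix ranked lower than the other members. Bound were 1 of 24 paralogs (4.17%, interval 0.105 to 21.1) and 6 of 64 other members (9.38%, interval 3.52 to 19.3), against 12.5% of all genes, which both intervals contain. The median percentile among all genes was 39.1 in replicate 1 and 39.4 in replicate 2 for the paralogs, against 62.8 and 60.6 for the other members. The order was the same in both replicates. Divergent neighbours were found at 4 of the paralogs and 40 of the other members, and the part of this difference in the entries was not tested.

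The share of members with a summit was below that of all genes at each number of annotated starts. With 1 start it was 3 of 53 (5.66%), against 9.11% of all genes, and with 2 starts 3 of 30 (10%), against 17.6%. With 3 or more starts it was 1 of 5 (20%), against 31.1%. These counts are small, split the same 7 bound members, and were given no interval. The nearest pooled summit of the 81 unbound members lay at a median of 8868 bp. Just inside the limit of 500 bp was ND-ASHI at 282 bp, and just outside it were ND-PDSW, an accessory subunit of complex I, at 657 bp and ATPsynE at 897 bp.

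Promoter motifs were counted in the 300 bases that run from 250 before to 50 after the most upstream start, on both strands, and compared with the same window of all 13945 genes. CCAAT was in 39 of 88 member promoters (44.3%, interval 33.7 to 55.3), against 46.7% of all promoters. The longer NF-Y forms were in 9 (10.2%), against 13.4%. None of these 9 genes was bound, but only 7.95% of members and 12.5% of all genes were, so 0 of 9 shows no difference. The bound share of all genes with such a form was not counted. TATCGATA was in 9 (10.2%), against 9.36%, an NRG element in 6 (6.82%), against 5.18%, CACGTG in 4 (4.55%), against 4.20%, and TGCGCATG in 1 (1.14%), against 1.09%. TATAAA was in 49 (55.7%, 44.7 to 66.3), against 45.8%, and part of the NRG matches can also be TATAAA matches. Each interval that is given includes the share of all promoters. All 9 matches of TATCGATA and all 6 of the NRG element were in members without an L suffix. Of the 24 paralogs 0 had either, against 9.36% and 5.18% of all promoters. Few matches are due in 24 promoters at such shares, and no interval was computed for the paralogs. A match describes letters in a window, and the absence of one says nothing of whether a factor binds.

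**Figure D4:**
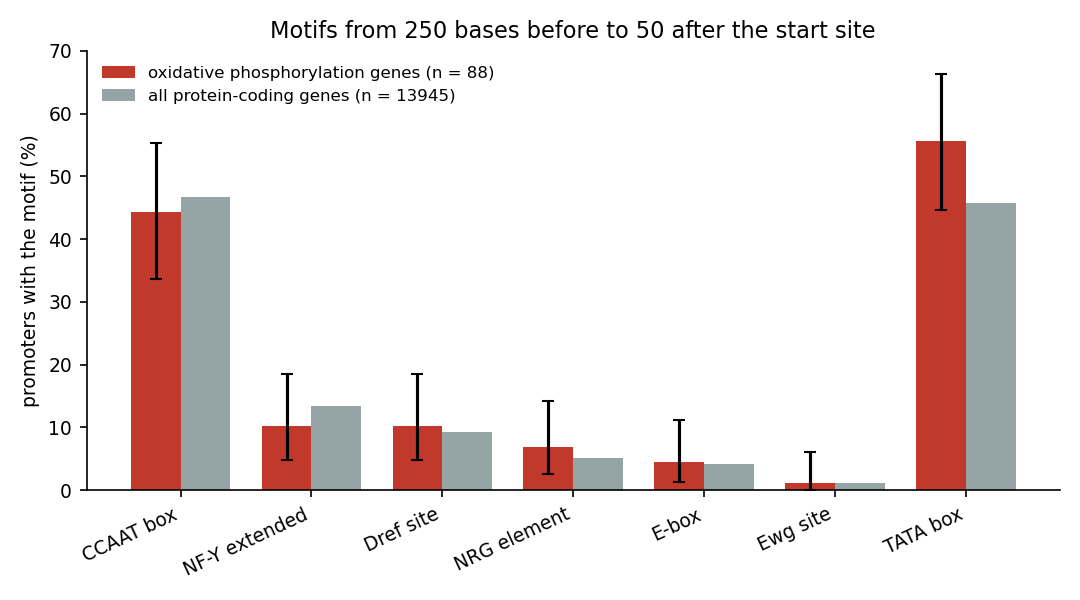
Percent of promoters that hold each motif, for the 88 oxidative phosphorylation genes and then all 13945 protein-coding genes; error bars on the members' bars are exact 95% intervals. CCAAT stands at 44.3% of members and 46.7% of all genes, and TATAAA shows the widest gap, 55.7% against 45.8%.

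CCAAT was about as frequent in the promoters of bound as of unbound members. CCAAT was in the promoters of 3 of 7 bound and 36 of 81 unbound members, and the longer forms were in 0 of 7 and 9 of 81. Within 50 bp of the summit CCAAT was found at 1 of 7 bound members, ND-51, against 19.5% of all pooled summits. The longer forms were at 0 of 7, against 5.55%, an NRG element at 1, ND-42, against 2.12%, and TATAAA at 3, ND-ASHI, ND-MWFE and ND-42, against 18.3%. The stretches of ND-51 and ND-42 printed above hold these CCAAT and NRG matches. TATCGATA, CACGTG and TGCGCATG were at 0 of 7, against 0.835%, 1.10% and 0.268% of all pooled summits. Of the 2 members with a summit only in another list, ATPsynE had both CCAAT and TATCGATA within 50 bp of its summit in replicate 2. ATPsyngamma had none of the 7 motifs within 50 bp of its summit in the conservative list.

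Other genes of the same system were counted from 7 lists of 66 genes, of which 13 (19.7%) were bound in the pooled list, against 12.5% of all genes. Counting a summit only for the gene with the nearest start left 8 of the 66, against 9.76% of all genes. Subunit genes with other symbols had 3 bound of 10. They were blw, the alpha subunit of the ATP synthase, with a pooled signal of 98.8 at -161 bp, levy, a complex IV subunit, with 117 at -162 bp, and Cyt-c-d, a cytochrome c, with 368 at 374 bp. The start of wmd was nearer than that of levy, and the start of CG31808 was nearer than that of Cyt-c-d. With these 10 genes the count became 10 of 98 (10.2%), still below that of all genes. Among 9 assembly factors CIA30, a complex I assembly factor, was bound with a signal of 789 at -109 bp, above that of every member.

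The tricarboxylic acid cycle list, which includes pyruvate dehydrogenase, had 5 bound of 13 (38.5%, interval 13.9 to 68.4). These were Fum1 with a pooled signal of 230, whose summit is that of ND-ASHI, Idh3g and Idh3b, subunits of isocitrate dehydrogenase, with 260 and 64.0, Ogdh of 2-oxoglutarate dehydrogenase with 97.2, and Pdhb of pyruvate dehydrogenase with 83.0. The own lists of replicates 1 and 2 each held 2 of these 13 genes, Fum1 and Idh3g, against 7.54% and 9.14% of all genes. Among 10 genes of mitochondrial DNA and its transcription mtSSB, the single-strand binding protein, was bound with 128. Among 10 import genes Tom7, of the outer membrane translocase, had a summit of 102 at -409 bp, with the starts of CG33199 and CG8229 nearer. None of 5 carrier genes was bound. Among 9 regulators, Dref had a summit of 127 with the start of RpL13 nearer, and Max, the partner of Myc, had 91.1 with the starts of CG42374 and Mettl5 nearer. The lists are small and were chosen with earlier results of these data known, and no test of their shares was made.

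**Figure D5:**
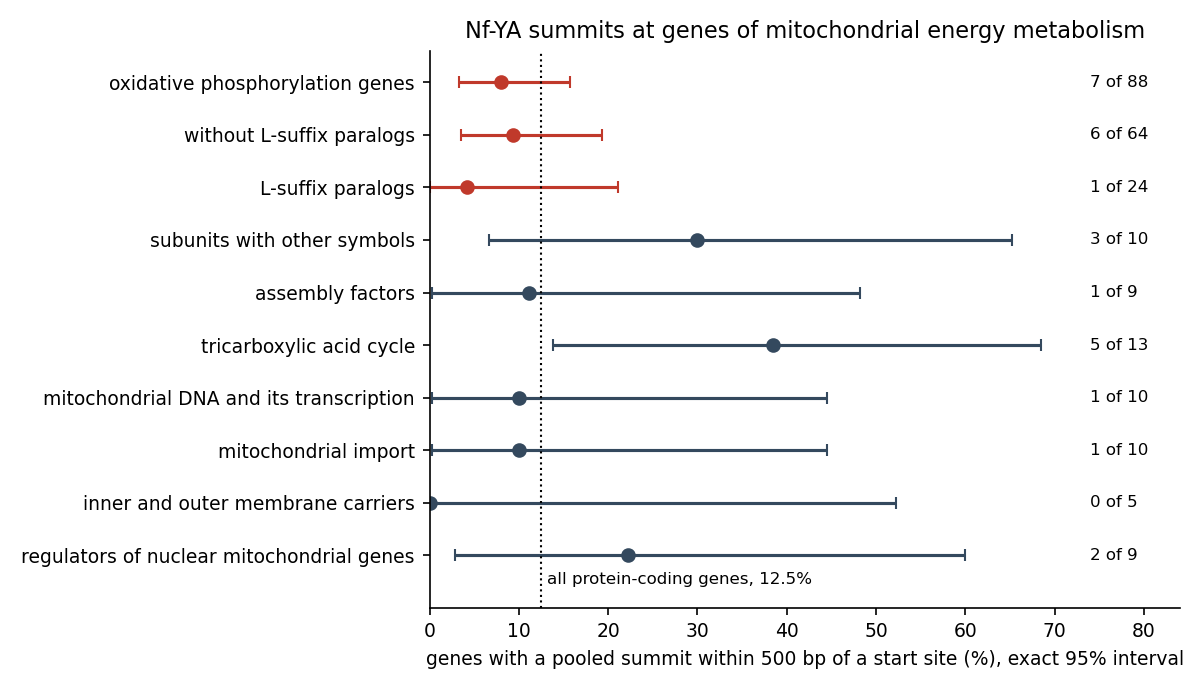
Percent of genes with a summit of the pooled list within 500 bp of a start site, for the oxidative phosphorylation genes, their subsets and the 7 lists of other mitochondrial genes; bars are exact 95% intervals and the dotted line marks all protein-coding genes at 12.5%. The intervals of the members and of both subsets cross the line, as do those of the other lists, and that of the tricarboxylic acid cycle list begins at 13.9%. The intervals are not adjusted for the 7 lists, which were chosen with earlier results of these data known.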

How the data were processed

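Peak lists from 2 biological replicates were analysed in the authors' dm6 coordinates. The authors deposited, per the file headers and labels, a ranked and a thresholded list for each replicate and a pooled and a conservative thresholded list for the series. The sources used here do not name the aligner or the peak caller, and per the labels chromatin was sonicated to 200 to 800 bp. The signal is the authors' deposited value on an unstated scale, used within a list. The deposited score was turned into an irreproducible discovery rate, and its minimum of 830 in the pooled list stands for 0.01. Reads were not analysed here, so depth is unknown. In the series' ranked lists, 16 columns of unnamed inputs were not used.

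Start sites came from Ensembl release 115 (BDGP6.54), and all peaks lay within the reference arms. Every start site of a gene was used, and a gene was bound with a summit within 500 bp. Shares have exact Clopper-Pearson intervals at 95%, for counting error only. No p was computed, because the design has 1 group. Members, lists and motifs were chosen with earlier results of these data known. The rule for named genes took bound members, the 10 unbound members of highest mean log2 signal, members next to the distance limit, nearest neighbours of summits and bound genes of the 7 lists. Of 74 names written in these lists 67 matched the annotation. The lists' Nc73EF is Ogdh, Sdhaf4 is Sirup, and Sdhaf3 counts as a member. Alternatives were other lists, distances, start sites, windows and member sets. Code was tested on simulated data and run in Python 3.11.15 with pandas 2.3.3, numpy 2.4.6 and scipy 1.17.1, and figures were drawn with matplotlib 3.10.9.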

Additional observations from a re-analysis of the deposited data

How the results depend on the processing

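The share of bound members was below that of all genes under every alternative run. The alternatives share peaks and genes with the main count, whose interval contains the share of all genes. The count of 7 bound members became 3 to 4 with the own list of either replicate. It was 4 without replicate 1 (ND-24, ND-ASHI, ND-MWFE and, not among the 7, ATPsynE) and 3 without replicate 2 (ND-24, ND-ASHI and ND-MWFE). The share of all genes was then 7.54% to 9.14%. The conservative list gave 5 members, which include ATPsyngamma, not among the 7, against 11.6% of all genes. The upper 50% of the pooled list by signal gave 3 against 7.54%. Summits within 100 bp gave 2 (2.27%) against 4.05%, within 250 bp 6 against 9.59%, and within 1000 bp 9 against 15.3%. Any base of the peak within 500 bp gave 8 against 13.6%, and the most upstream start alone gave 7 against 10.6%. Counting by the nearest start, chosen after seeing the data, gave 3 against 9.76%. ND-24 was bound under all of these, ND-ASHI and ND-MWFE under all except the 100 bp and the nearest-start counts and, for ND-ASHI, the 250 bp count.

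Other member sets gave 6 of 64 (9.38%) without the paralogs, 10 of 98 with the subunits of other symbols, 7 of 91 (7.69%) with the symbol matched in any case, and, added after seeing the data, 7 of 87 (8.05%) without Sdhaf3. Ranked entries within 100 bp were found at 20 members in replicate 1 and 28 in replicate 2. With 100 bp on each side, CCAAT lay near 2 bound summits, CACGTG in 1 promoter and TATAAA in 26. That promoter window is shorter than the main one of 300 bases. For these entries and motifs the share of all genes was not computed at the same setting, so the counts have no background. The causes were not tested. No paired analysis was possible because the series has 1 group. With 2 replicates and unknown depth, entries below the thresholds cannot be told apart from background.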

Other observations

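COX7C, a small complex IV subunit gene, and its paralog COX7CL share 1 entry of the ranked list of replicate 1, with a signal of 16.4 for both genes. In replicate 2 they had separate entries, 11.98 for COX7C and 21.3 for COX7CL. Members that lie close together are therefore not independent counts.

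ND-42 and Cchl, and ND-ASHI and Fum1, are pairs of divergent genes in which both encode mitochondrial proteins. Each pair has 1 summit between or near its starts, with pooled signals of 66.1 and 230. Such pairs were not counted among all members. ND-B16.6, which was not bound, is divergent from kdn of the tricarboxylic acid cycle list, which was not bound either. Of the divergent neighbours of bound members, Fum1 was on the 7 lists, and Cchl, TppII, corolla, CG13994, CG33932 and Rpp20 were not.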
